A study of Mus musculus with 2 samples.

Results

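The cells described here were the tumour phagocytes with the most MHC class II transcript. They came from subcutaneous syngeneic fibrosarcomas in wild-type C57BL/6 mice, whose age and sex the labels used here do not state. The tumours were digested with collagenase B and DNase I, the red cells were lysed, and the suspension was passed over a magnetic column. What the column held back is called the iron-positive fraction and what flowed through the iron-negative fraction. Each fraction was 1 droplet library of 3' tags with molecular identifiers (UMIs, which count each captured RNA molecule once). The labels do not say how many tumours or mice went into a library. No unfractionated library was analysed here.

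A barcode was taken as a phagocyte if it had at least 3000 UMIs, at most 15% mitochondrial UMIs, at least 3 of Csf1r, Cd68, Ctss and Fcgr3 detected, and no more than 1 Cdh5, 2 Rgs5 and 3 Col1a1 UMIs. Of 23792 barcodes, 15319 passed this gate, 8279 of them iron-negative and 7040 iron-positive. The members were chosen by the summed UMIs of H2-Aa, H2-Ab1, H2-Eb1 and Cd74 per 10,000 UMIs of the cell, a score of class II transcript, and are the top 10% of both libraries pooled. They number 1532 cells, 1043 iron-negative and 489 iron-positive. Since these 4 genes selected the members, their levels are a description, they were left out of every count and rank of genes, and members against other phagocytes is a comparison of cells sorted by their own RNA. With 1 library per fraction no test between fractions was possible. Intervals are exact 95% intervals that cover counting error only, no value below has a replicate check, and differences between the libraries may be technical.

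MHC class II molecules show peptides from engulfed proteins to CD4+ T cells. Their alpha and beta chains assemble with the invariant chain, encoded by Cd74, which blocks the groove until lysosomal proteases degrade it, and H2-DM then helps to exchange its last fragment for a peptide. The genes are switched on together by the coactivator CIITA, which is recruited by the factors bound at their promoters and is induced in macrophages by interferon gamma. In tumours, macrophages rich in class II are often set against those rich in scavenger receptors and tissue repair genes, and macrophages that take up red cells or debris store and export iron through ferritin, heme oxygenase and ferroportin.

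The lowest member scored 368.343 class II UMIs per 10,000 and the highest cell left out 368.337, so the boundary cut through a continuous range, with 583 cells within 5% of it. The median member scored 429.6 in the iron-negative and 426.3 in the iron-positive library, against 122 and 52.9 in the other phagocytes. Class II genes took 4.50% of members' UMIs in the iron-negative library and 4.46% in the iron-positive one, against 1.47% and 1.05% in the others. Levels below are the UMIs of a gene per 1000000 UMIs (CPM) summed over the cells of a group, so they compare 1 gene between groups. H2-Aa, a class II alpha chain, was at 8560 CPM in iron-negative and 8287 CPM in iron-positive members, against 2803 and 1954 CPM in the others. Cd74 was at 21237 and 21227 CPM in members, against 7399 and 5418 CPM. Among the members the libraries were close on all 4 genes, while among the other phagocytes the iron-positive library was lower on each.

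Members were a larger share of the iron-negative than of the iron-positive phagocytes. They made up 12.6% (11.9% to 13.3%) of gated iron-negative cells and 6.95% (6.36% to 7.57%) of gated iron-positive cells, a ratio of 0.551 (0.494 to 0.614). The libraries differed most at the other end of the score. The lowest decile (10% of the cells) of the pooled score held 129 iron-negative cells, 1.56% of that library's phagocytes, and 1403 iron-positive cells, 19.9%. From the third decile upward the share of the iron-negative library was the larger at every step. The score was cut on both libraries together, so these shares describe the measure that chose the members.

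**Figure D1:**
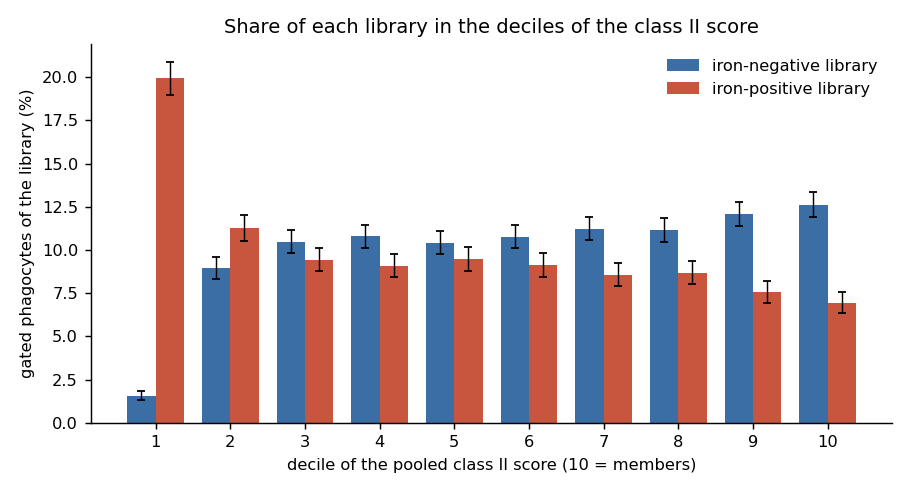
Percent of each library's gated phagocytes (vertical axis) in each decile of the pooled class II score (horizontal axis), with exact 95% binomial intervals as bars. The iron-positive library holds 19.9% of its phagocytes in the lowest decile and 6.95% in the highest, and the iron-negative library 1.56% and 12.6%.

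The cells carried the RNA of macrophages. All 13 macrophage markers reached 10 CPM in the members of both libraries, with C1qa, a chain of complement C1q, at 5038 and 4743 CPM (iron-negative, then iron-positive) and the lipoprotein gene Apoe at 11423 and 7991 CPM. The same 13 reached it in the other phagocytes. Csf1r and Cd68 among them also served in the gate, so their presence was largely set by the selection. Classical dendritic cells are the other class II-rich phagocytes that the gate could hold, and of 10 of their core genes, 1 in iron-negative and 2 in iron-positive members reached 10 CPM, Itgax in both and Ccr7 in the iron-positive library. Flt3, the receptor that defines that lineage, had 1 UMI in 1043 iron-negative and 10 UMIs in 489 iron-positive members, and Zbtb46, its transcription factor, 1 UMI in each. Cells with at least 2 of 7 dendritic cell genes made up 0.767% (0.332% to 1.51%) and 2.25% (1.13% to 3.99%) of members, against 0.193% and 0.488% of the other phagocytes. Other dendritic cell lists were compared on genes with 10 CPM on the higher side in both libraries. At least 1.5-fold higher in the members of both were 2 of 6 type 1 and 1 of 5 type 2 genes. For migratory genes it was 0 of 4 and for plasmacytoid genes 1 of 2, against 0.894% of all genes. Of the type 2 genes 1 was lower. The summed level of T and NK cell markers was 7.11 and 14.6 CPM in members, with Cd3e at 0 UMIs in both. B cell markers summed to 81.8 and 72.6 CPM, nearly all of it Ighm at 68.9 and 61.5 CPM, with Cd79a at 2 and 0 UMIs. Mesenchymal markers summed to 20.8 CPM in iron-negative and 91.0 CPM in iron-positive members, against 26.4 and 116 CPM in the other phagocytes.

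Libraries held 132796517 UMIs (iron-negative) and 129921053 UMIs (iron-positive) in all. The median member had 16214 and 12926 UMIs, against 13746 and 11023 in the other phagocytes. Stromal barcodes, with at least 10 UMIs of Rgs5 or Col1a1 and at most 1 of the 4 phagocyte genes, give a level for RNA from outside the cell. In the 143 such barcodes of the iron-positive library the 4 class II genes stood at 75.3 to 208 CPM. The same cell barcode occurred 85 times in both libraries, and 5 members carried such a barcode. The number of barcodes made of more than 1 cell was not estimated.

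The genes of the class II alpha and beta chains, H2-DM and H2-DO lie together on mouse chromosome 17, while Cd74 lies elsewhere. Most of those with a promoter available share a promoter layout, as counted below. In the textbook layout an X box, bound by the RFX complex, is followed by a Y box, bound by NF-Y, and together these hold the platform to which CIITA binds. Promoters of H2-Aa and H2-Eb1, both used to choose the members, and of H2-Ob, a chain of the H2-DM inhibitor H2-DO that stayed below 10 CPM, are shown for that layout. They are RefSeq sequences of GRCm38.p6, from 5' to 3' on the strand of the gene and ending at the base before its start, with the X box core (GNAAC) and the Y box (ATTGG) in capitals. H2-Aa is on the minus strand at chr17:34287824-34287953, H2-Eb1 on the plus strand at chr17:34305737-34305866, and H2-Ob on the plus strand at chr17:34238775-34238902.
H2-Aa: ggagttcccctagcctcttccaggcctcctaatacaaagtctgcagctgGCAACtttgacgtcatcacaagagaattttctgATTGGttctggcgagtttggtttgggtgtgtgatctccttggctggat
H2-Eb1: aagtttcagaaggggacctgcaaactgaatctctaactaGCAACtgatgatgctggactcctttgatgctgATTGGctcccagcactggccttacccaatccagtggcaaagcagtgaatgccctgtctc
H2-Ob: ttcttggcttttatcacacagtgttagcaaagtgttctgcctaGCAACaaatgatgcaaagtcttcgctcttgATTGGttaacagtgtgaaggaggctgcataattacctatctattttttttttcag

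Between the X core and the Y box lie 28 bases in H2-Aa, 27 in H2-Eb1 and 25 in H2-Ob. GNAAC followed 15 to 30 bases later by ATTGG, searched on both strands in the 250 bases before a start, occurred at 773 of 32851 mouse starts (2.35%), and ATTGG alone on either strand at 33.8%. These letters were chosen after the class II promoters had been read. Of the 8 class II genes in the table, 6 held the arrangement (H2-Aa, H2-Eb1, H2-DMb1, H2-Oa, H2-Ob and H2-Eb2), and H2-DMa and H2-DMb2 did not. No promoter was available for H2-Ab1 and Cd74. Among the genes measured in members and others, 198 of 6055 with a promoter in the table held it (3.27%). Of those higher in members it was 1 of 51 (1.96%, H2-DMb1), and of those lower 9 of 238 (3.78%). A match is a description of letters and does not show that a factor binds there.

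The other genes of the class II pathway followed the score. Ciita, the coactivator, stood at 67.2 CPM in iron-negative and 68.7 CPM in iron-positive members, against 23.4 and 17.8 CPM in the other phagocytes, a log2 ratio of 1.53 and 1.95. At least 1 Ciita UMI was found in 54.5% and 49.1% of members and in 21.8% and 14.96% of the others. The 143 stromal barcodes of the iron-positive library (median 17388 UMIs) held 0 Ciita UMIs, which allows a total of up to 3. H2-DMa, the alpha chain of the peptide exchange factor, was at 831 and 823 CPM against 429 and 315 CPM (log2 0.96 and 1.39). Its partner H2-DMb1 was at 700 and 708 CPM against 320 and 239 CPM (log2 1.13 and 1.57). H2-DMb2, a near copy of H2-DMb1 whose reads could be split between them, was at 17.5 and 26.2 CPM against 10.9 and 7.97 CPM. In each of these genes the members of both libraries lay above the others of both libraries.

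The chains of H2-DO, which restrains H2-DM and is known from B cells and some dendritic cells, were barely detected. H2-Oa had 3.65 and 8.90 CPM in members and H2-Ob 5.70 and 5.83 CPM. H2-Eb2 had 8 UMIs in the members of each library. A gene counts as measured here if it reached 10 CPM on its higher side in both libraries, and as higher or lower if the difference was at least 1.5-fold in both. Of the 6 chaperones and other chains listed, 3 were measured and all 3 were higher in members, against 67 of 7491 measured genes (0.894%). In the other direction 303 genes (4.04%) were lower, and the median log2 ratio of all measured genes was -0.14 in the iron-negative and -0.12 in the iron-positive library. Scaling each ratio to that median gave 113 higher and 197 lower genes.

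The other measured regulators of class II genes were not 1.5-fold higher in members. Of 15 listed regulators 11 were measured, and of these Ciita alone differed by 1.5-fold. Over all measured genes 0.894% were higher and 4.04% lower. Rfx5 and Rfxap encode subunits of the RFX complex: Rfx5 was at 7.94 and 6.44 CPM in members and Rfxap at 37.98 and 42.7 CPM. Irf8, a transcription factor of myeloid cells, was at 348 and 326 CPM, and Spi1, the PU.1 factor of the myeloid lineage, at 380 and 374 CPM. March1, a ligase that removes class II molecules from the cell surface, was at 58.1 and 57.2 CPM. The median regulator had a log2 ratio of 0.00 in the iron-negative and 0.01 in the iron-positive library.

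For class I presentation and costimulation the counts were near those over all measured genes, of which 0.894% were higher and 4.04% lower. Of 21 genes of class I and its peptide loading, 0 were higher and 0 lower, with medians of 0.05 and -0.02. Of 13 measured costimulatory and checkpoint ligands, 0 differed. Cd86, a ligand of CD28 on T cells, was at 140.0 and 134 CPM in members against 111 and 96.1 CPM, and Cd40, the receptor through which T cells license antigen-presenting cells, at 56.4 and 57.5 CPM against 44.3 and 40.9 CPM. Of 12 proteases and related lysosomal genes, 0 were higher and 2 were lower. These were Ctsd, at 727 and 599 CPM against 1257 and 2197 CPM, and Ctsl, at 548 and 479 CPM against 927 and 1304 CPM. Ctsl encodes a protease that cuts the invariant chain in thymic epithelium, while macrophages and dendritic cells rely on cathepsin S. Ifi30, a lysosomal thiol reductase that unfolds antigens, was at 1357 and 1490 CPM against 1014 and 844 CPM, with log2 ratios of 0.42 and 0.82.

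Of 23 measured interferon gamma targets, 2 were at least 1.5-fold higher in the members of both libraries and 0 were lower. For all measured genes the shares were 0.894% higher and 4.04% lower. Gbp2b, a guanylate-binding protein, was at 152 and 166 CPM against 56.1 and 44.1 CPM. Cxcl9, a chemokine that draws T cells through CXCR3, was at 2104 and 2385 CPM against 1375 and 1066 CPM, with log2 ratios of 0.61 and 1.16. Cxcl10, another ligand of CXCR3, was at 197 and 189 CPM against 253 and 258 CPM. The median of the 23 genes was 0.04 and -0.11, against -0.14 and -0.12 over all measured genes. Of 17 type I interferon targets, 0 were higher and 4 lower.

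Of the genes that reached 50 CPM in the members of both libraries, those highest against the others outside the class II pathway began with Gbp2b, Il1r2 and Dnase1l3. Below that level, Klrb1b, a lectin receptor known from NK cells, had the largest log2 ratio of all measured genes, by the smaller of the 2 libraries' values, 1.93 and 2.42, from 44.2 and 69.5 CPM in members against 11.6 and 12.95 CPM. Napsa, an aspartic protease, had 1.21 and 1.39, from 33.2 and 57.4 CPM against 14.4 and 21.9 CPM. Il1r2, a decoy receptor for interleukin 1, was at 110 and 172 CPM against 46.8 and 47.9 CPM. Dnase1l3, a secreted nuclease that digests DNA of dead cells, was at 201 and 231 CPM against 87.6 and 67.5 CPM. Itgax, which encodes the integrin CD11c, was at 125 and 155 CPM against 68.6 and 65.7 CPM. Vdr, the vitamin D receptor, was at 102 and 83.9 CPM against 58.6 and 42.0 CPM. Tmem176a and Tmem176b, neighbouring genes for membrane channels, P2ry14 and Gpr171, receptors coupled to G proteins, and Zmynd15, Herpud1 and Pmvk completed the ranked genes. Mgl2, a lectin of alternatively activated macrophages and some dendritic cells, was at 73.4 and 106 CPM against 45.4 and 34.0 CPM. Ighm was at 68.9 and 61.5 CPM against 34.5 and 22.4 CPM.

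**Figure D2:**
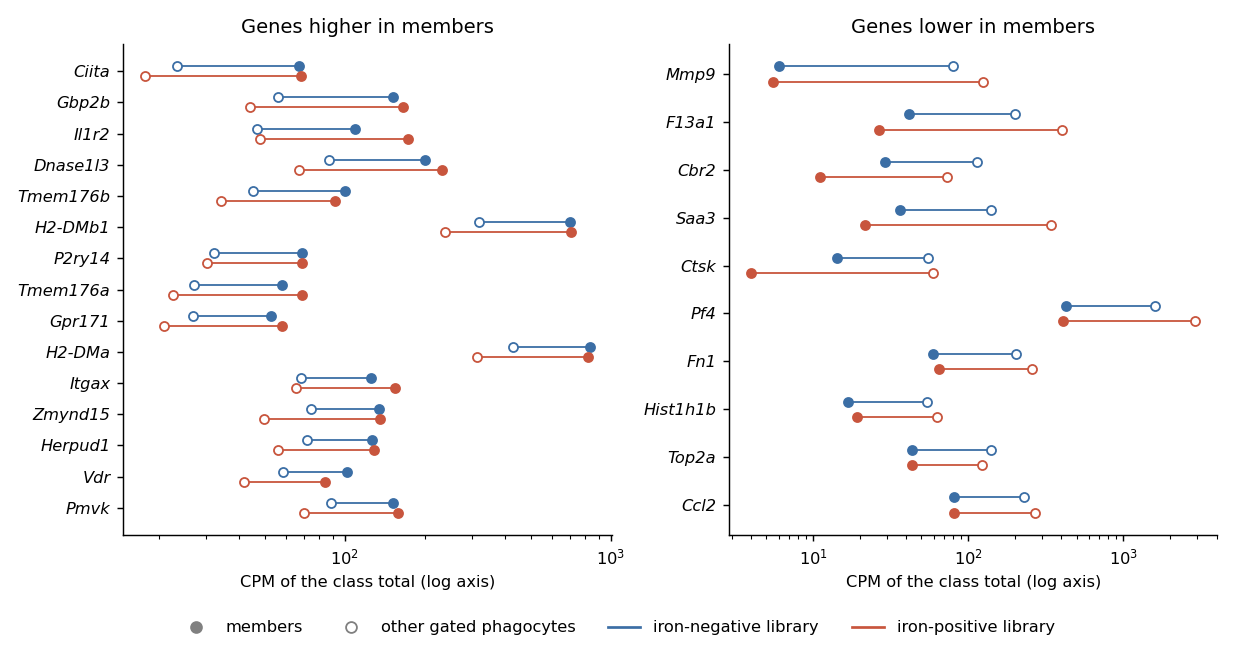
Summed level in CPM (horizontal log axis) of the ranked genes of at least 50 CPM, higher (left) and lower (right) in members, with filled points for members, open points for the other gated phagocytes and 1 colour per library. Each line joins the 2 values of a library, for example Ciita at 67.2 against 23.4 CPM and Pf4 at 429 against 1600 CPM in the iron-negative library.

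Tissue-resident macrophage genes were lower in members. All 10 measured genes of the tissue-resident list were lower, against 4.04% of all measured genes. Their median log2 ratio was -1.34 in the iron-negative and -2.66 in the iron-positive library. F13a1, the factor XIII A chain, was at 41.3 and 26.7 CPM against 201 and 404 CPM. Folr2, a folate receptor, was at 66.1 and 40.7 CPM against 175 and 162 CPM, and Mrc1, the mannose receptor, at 690 and 507 CPM against 1064 and 863 CPM. Pf4, which encodes the chemokine CXCL4, was at 429 and 408 CPM against 1600 and 2914 CPM. Lyve1, the hyaluronan receptor of perivascular macrophages, had 14 and 7 UMIs in members, 0.823 and 1.07 CPM against 15.8 and 16.9 CPM.

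Of 18 chemokines, 9 were lower and 1, Cxcl9, was higher in members, against 4.04% lower and 0.894% higher of all measured genes. Ccl2, the main attractant of monocytes, was at 81.3 CPM in the members of both libraries against 228 and 271 CPM. Ccl8 was at 1936 and 1223 CPM against 3582 and 3517 CPM, and Cxcl3, an attractant of neutrophils, at 2.88 and 4.76 CPM against 20.04 and 100.1 CPM. Mmp9, a gelatinase, was at 6.06 and 5.52 CPM against 79.4 and 124 CPM. Arg1, the arginase of alternatively activated macrophages, was at 875 and 651 CPM against 1489 and 2087 CPM. Of 11 genes of alternative activation 5 were lower and 1, Mgl2, was higher.

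Cell cycle transcripts were a smaller share of the members' RNA. Of 16 genes, 15 were lower, against 4.04% of all measured genes, and Mcm3 was not. The medians were -1.61 and -1.16. Top2a, which untangles chromosomes before division, was at 43.5 and 43.4 CPM against 139.8 and 124 CPM, and Mki67 at 36.3 and 36.1 CPM against 99.95 and 79.1 CPM.

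Hmox1 was lower in the members of both libraries, while the ferritin genes were closer to the other phagocytes. Hmox1, the heme oxygenase that releases iron from heme, was at 168 CPM in iron-negative members and 186 CPM in iron-positive members, against 421 and 1710 CPM in the others. Fth1, the ferritin heavy chain, was at 17491 and 18855 CPM against 15909 and 24521 CPM. Ftl1, the light chain, was at 5533 and 5478 CPM against 5656 and 9405 CPM. Lower by 1.5-fold in both libraries were 2 of 16 iron genes, 2 of 11 heme genes and 3 of 14 NRF2 targets (antioxidant genes). In each list 0 were higher, and over all measured genes 4.04% were lower and 0.894% higher. The 2 lower iron genes were Tfrc, the transferrin receptor, and Slc25a37, a mitochondrial iron importer gene. Tfrc was at 7.06 and 7.21 CPM against 20.3 and 17.2 CPM.

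In iron-positive cells Hmox1, Prdx1 and Gclm were lower in each decile of the class II score than in the one before, and the libraries nearly met in the members. Hmox1 in the iron-positive library went from 3300.4 CPM in the lowest decile to 1122 CPM in the fifth and 186 CPM in the members. In the iron-negative library it went from 564 CPM to 514 CPM and 168 CPM. The log2 ratio between libraries was thus 2.55 in the lowest decile, 1.13 in the fifth and 0.14 in the members. Prdx1, a peroxidase under NRF2, went from a log2 ratio of 1.93 to 0.23, Gclm, a subunit of the enzyme that makes glutathione, from 2.71 to 0.10, and Ftl1 from 1.13 to -0.01.

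Of the genes with a negative ratio in the lowest decile, some came closer to 0 in the members and others did not. Ccr2, the receptor through which monocytes follow CCL2, had a log2 ratio between libraries of -2.65 in the lowest decile, from 132 CPM in the iron-negative and 21.0 CPM in the iron-positive library. In the members it was 0.02, from 183 and 185 CPM. Cx3cr1, the fractalkine receptor, went from -1.46 to -0.22, and H2-DMa from -0.92 to -0.01. Mrc1 moved away from 0, from -0.20 to -0.45, and Il1r2 changed sign, from -0.43 to 0.65. Mmp12, the macrophage elastase, did not close: its ratio was 3.83 in the lowest decile and 1.54 in the members. The deciles are cut by the score, so these series are a description along the measure that chose the members.

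**Figure D3:**
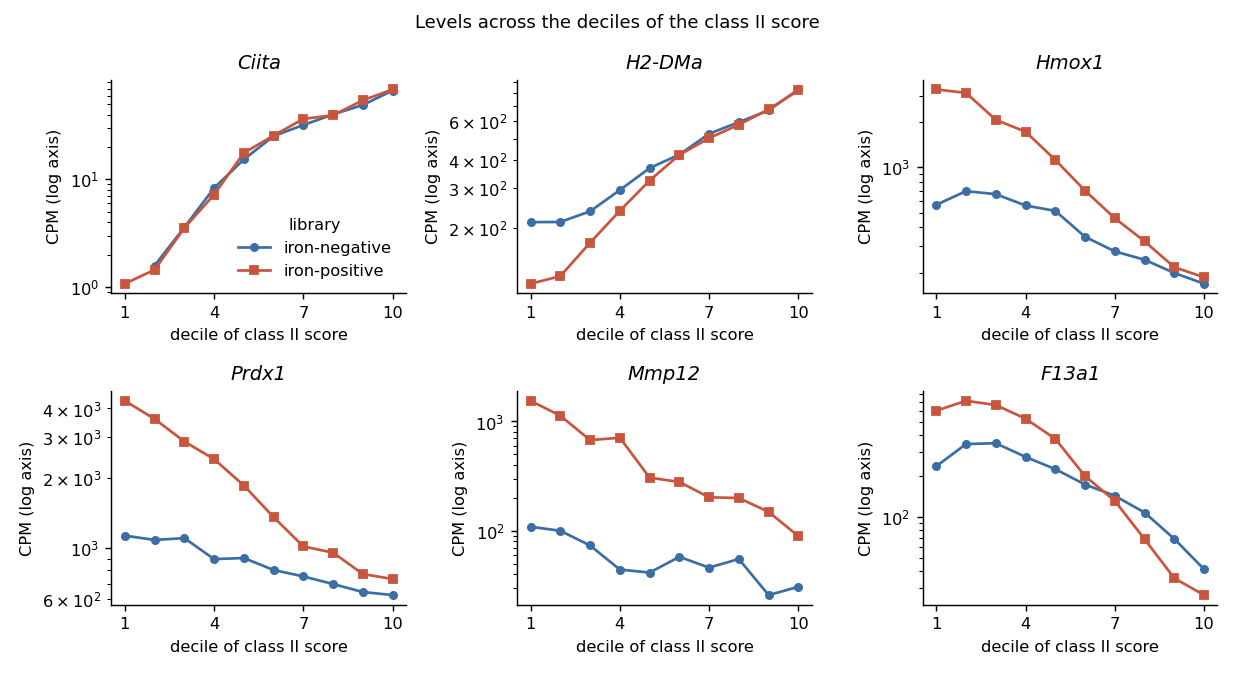
Level in CPM (log axis) of 6 genes against the decile of the pooled class II score, with 1 line per library and members as decile 10. Hmox1 and Prdx1 of the iron-positive library start above the iron-negative one (3300.4 against 564 CPM for Hmox1) and meet it at the right, Mmp12 keeps a gap, and Ciita has no point in the iron-negative lowest decile, where it had no UMI.

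Between the fractions, members differed in few genes. Of 7386 genes with at least 10 CPM in the members of either library, 50 (0.677%) were at least 1.5-fold higher and 89 (1.2%) at least 1.5-fold lower in iron-positive than in iron-negative members, around a median log2 ratio of -0.09. Relative to that median there were 72 higher and 49 lower genes, so the balance of directions depended on the scaling. The other phagocytes had 198 of 7762 genes (2.55%) higher and 68 (0.876%) lower in the iron-positive library, around a median of -0.12. That contrast includes their unequal spread over the lower deciles. Since the members are fewer, counting error is larger among them.

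In iron-positive members 0 of 13 measured iron genes, 0 of 10 heme genes and 0 of 14 NRF2 targets were higher or lower. For lists of this size that is near the share over all genes measured in members, 0.677% higher and 1.2% lower. In the other phagocytes 5 of 17 iron genes, 3 of 11 heme genes and 9 of 14 NRF2 targets were higher and 0 lower. Among all genes measured there, 2.55% were higher and 0.876% lower. Each group was counted on its own genes, those with at least 10 CPM in either library, so the gene sets differ. For Hmox1 the log2 ratio was 0.14 (0.04 to 0.24) in members and 2.02 in the others, a difference between the ratios of -1.88 with a standard error from counting of 0.05. For Gclm it was 0.10 (-0.16 to 0.35) in members and 2.18 in the others. Slc40a1, the iron exporter ferroportin, had 21 and 35 UMIs in members, 1.23 and 5.37 CPM (log2 2.11, 1.30 to 2.98), against 6.22 and 111 CPM in the others. Being under 10 CPM in members, Slc40a1 was outside their 13 iron genes, while it was among the 17 of the others. The stromal barcodes of the iron-positive library, where free RNA is a possible source, had 2.81 CPM of Slc40a1, 84.4 CPM of Hmox1 and 42.6 CPM of Mmp12. After 10% of the UMIs was subtracted with the mean profile of each library's barcodes, Slc40a1 in members turned to -3.25 (no UMI was left in the iron-positive library, so this value depends on the added 0.5), Cd36 to -1.49 and Hmox1 to -1.10, and Mmp12 came to 0.53, under 1.5-fold. The true amount of free RNA in the members was not measured.

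**Figure D4:**
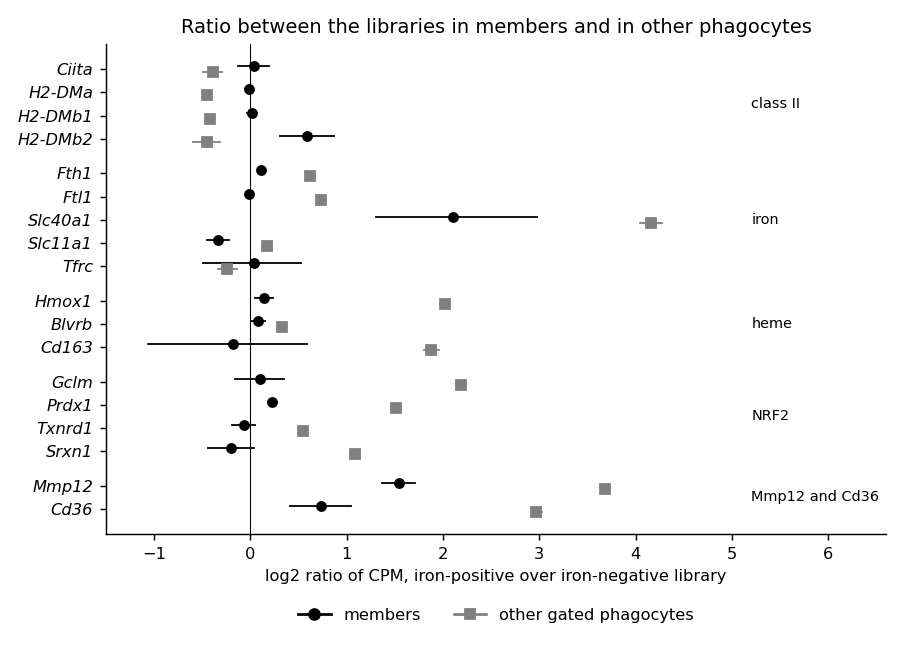
Log2 ratio of CPM, iron-positive over iron-negative library (horizontal axis), in members (black circles) and in the other gated phagocytes (grey squares), with exact 95% counting intervals, for class II, iron, heme and NRF2 genes and Mmp12 and Cd36. The members lie near 0 for Hmox1 (0.14), Gclm (0.10) and Ftl1 (-0.01), where the others lie at 2.02, 2.18 and 0.73.

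Mmp12 had the largest ratio in iron-positive members among genes that reached 50 CPM there. Genes of lower level had larger ones, such as Fabp4 (3.54) and Sparc (3.01). It was at 30.7 CPM in iron-negative and 89.3 CPM in iron-positive members (log2 1.54, 1.37 to 1.71), against 55.1 and 707 CPM in the others. Cd36, a scavenger receptor for oxidised lipid, was at 12.8 and 21.2 CPM in members (log2 0.73, 0.41 to 1.05), below the 58.7 CPM of the iron-positive stromal barcodes, against 28.5 and 223 CPM in the others. Of 16 genes of lipid-associated macrophages, 4 were higher in iron-positive members, against 0.677% of all measured genes. These were Mmp12, Cd36, Spp1 and Fabp4. Spp1, or osteopontin, was at 36.7 and 64.1 CPM (log2 0.81), and Fabp4, a lipid carrier, at 1.71 and 20.1 CPM.

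Retnla ranked second, at 78.7 and 195 CPM in members (log2 1.31), and rested on a few cells, as given below. Ifitm1, S100 genes and Il1r2 followed. Ifitm1, a membrane protein that restricts viral entry, was at 199 and 384 CPM in members (log2 0.95), S100a4 at 101 and 179 CPM (0.82), S100a6 at 429.6 and 683 CPM (0.67) and Il1r2 at 110 and 172 CPM (0.65). Napsa had a ratio between libraries of 0.79 and Klrb1b of 0.65. Stromal barcodes of the iron-positive library carried 6031 CPM of S100a6, 1250 CPM of Spp1, 504 CPM of Mt2, 277 CPM of Ifitm1 and 195 CPM of S100a4, but 0 UMIs of Napsa and 0.352 CPM of Klrb1b. All 3 measured mesenchymal markers were higher in iron-positive members, Sparc at 4.998 and 40.5 CPM, Col1a1 at 3.53 and 15.7 CPM and Col3a1 at 4.70 and 14.9 CPM. The part of stromal RNA in the higher genes was not tested. Ifitm1 and Il1r2 also label a sub-cluster of members, sub-cluster 1 below, at 14.3 and 6.93 times their level in the other members. That sub-cluster held 18.3% of iron-negative and 28.4% of iron-positive members, shares that are no result of their own since these genes entered the clustering. Within sub-clusters 1 to 6 the log2 ratio of Ifitm1 between libraries was 0.58, 0.94, -0.38, -0.02, -0.87 and 0.09, and that of Il1r2 0.32, 0.37, 0.30, 0.48, -0.39 and 1.14.

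The genes lower in iron-positive members included those of resident macrophages. Fcrls, an Fc receptor-like gene, was at 78.1 CPM in iron-negative and 38.5 CPM in iron-positive members (log2 -1.02), and Stab1, a scavenger receptor, at 238 and 144 CPM (-0.73). Folr2 was at 66.1 and 40.7 CPM (-0.70), and Ccl8 at 1936 and 1223 CPM (-0.66). Of 7 measured tissue-resident genes 4 were lower and 0 higher, against 1.2% and 0.677% of all measured genes. In the other phagocytes 1 of 12 was lower and 6 were higher. Mmp19, a metalloproteinase, was at 158 and 93.4 CPM, Klf2, a transcription factor that quiets inflammation, at 282 and 171 CPM (-0.72), and Vcam1, an adhesion molecule, at 300.2 and 201 CPM (-0.58). Rhob and Jun, which respond early to stress, and Neat1, a long noncoding RNA, were also among the 12 lowest. Some of these differences were not particular to members: in the other phagocytes the ratio was -1.31 for Fcrls, -0.75 for Stab1 and -0.70 for Vcam1. It was -0.36 for Klf2, -0.12 for Folr2, -0.03 for Ccl8 and 0.23 for Mmp19. Class II regulators had 0 of 11 and macrophage markers 0 of 13 genes past 1.5-fold in either direction. For lists of this size that is near the share over all 7386 genes, 0.677% higher and 1.2% lower.

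Several genes that differed between the libraries rested on a few cells. Retnla, a secreted protein of alternatively activated macrophages, had 1271 UMIs in iron-positive members, of which 2 of 489 cells held 96.7%, and 1338 UMIs in iron-negative members, of which 5 cells held 95.1%. Its log2 ratio in members was 1.31, and -2.86 without the 5 cells with most of its UMIs in each library. Ccr7, the receptor of migrating dendritic cells, was found in 9 iron-positive members, 5 of which held 93.6% of its 141 UMIs. H2-DMb2 had a ratio of 0.59 with all cells and 0.29 without the top 5 in each library. Mmp12 was broader, with a UMI in 11.7% of iron-negative and 34.6% of iron-positive members, and kept a ratio of 1.499 without its top 5 cells.

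The members were not of 1 kind. Clustering them by their own genes gave 6 groups, of which the genes that define each are its labels and not results. Sub-cluster 1 (330 cells) was led by F10, Inhba, Ifitm1 and Ly6c2. Monocyte markers summed to 1886 CPM there against 494 CPM in the other members, and macrophage markers to 19319 CPM against 31238 CPM. The monocyte list holds Plac8 (528 CPM), Ly6c2 (203 CPM) and Chil3 (79.2 CPM), which are among the leading genes of this sub-cluster. That sum is therefore in part a label too. Sub-cluster 2 (714 cells) was led by Fcrls and Vcam1, with small differences from the rest. Sub-cluster 3 (167 cells) was led by the type I interferon targets Ifit1, Ifit3 and Rsad2, and sub-cluster 4 (137 cells) by the heat shock genes Hspa1a and Hspa1b with Ccl3 and Egr1, which rise during tissue digestion. Sub-cluster 5 (114 cells, median 9060 UMIs) was led by Retnla, F13a1, Lyz1 and Cbr2. Most of its cells had F13a1 (79.8%) and Cbr2 (58.8%), but few had Retnla (10.5%) or Lyz1 (9.65%). Monocyte markers summed to 1887 CPM in sub-cluster 5, much as in sub-cluster 1, against 713 CPM in the members outside it. Ly6c2 was at 135 CPM in sub-cluster 5. Sub-cluster 6 (70 cells, median 20362 UMIs) was led by Nusap1, Pclaf and histone genes.

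Class II presentation genes were found in all 6 sub-clusters, as the choice of members by class II transcript sets. H2-DMa ran from 567 CPM in sub-cluster 5 to 902 CPM in sub-cluster 4, and Ciita from 58.3 CPM in sub-cluster 6 to 114 CPM in sub-cluster 4. C1qa ran from 3005 CPM in sub-cluster 1 to 6127 CPM in sub-cluster 4. Hmox1 was at 455 CPM in sub-cluster 5, at 274 CPM in sub-cluster 4 and at 113 to 166 CPM in the other four. F13a1, 1 of the genes that label sub-cluster 5, was at 575 CPM there and at 404 CPM in the iron-positive phagocytes that were not members.

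**Figure D5:**
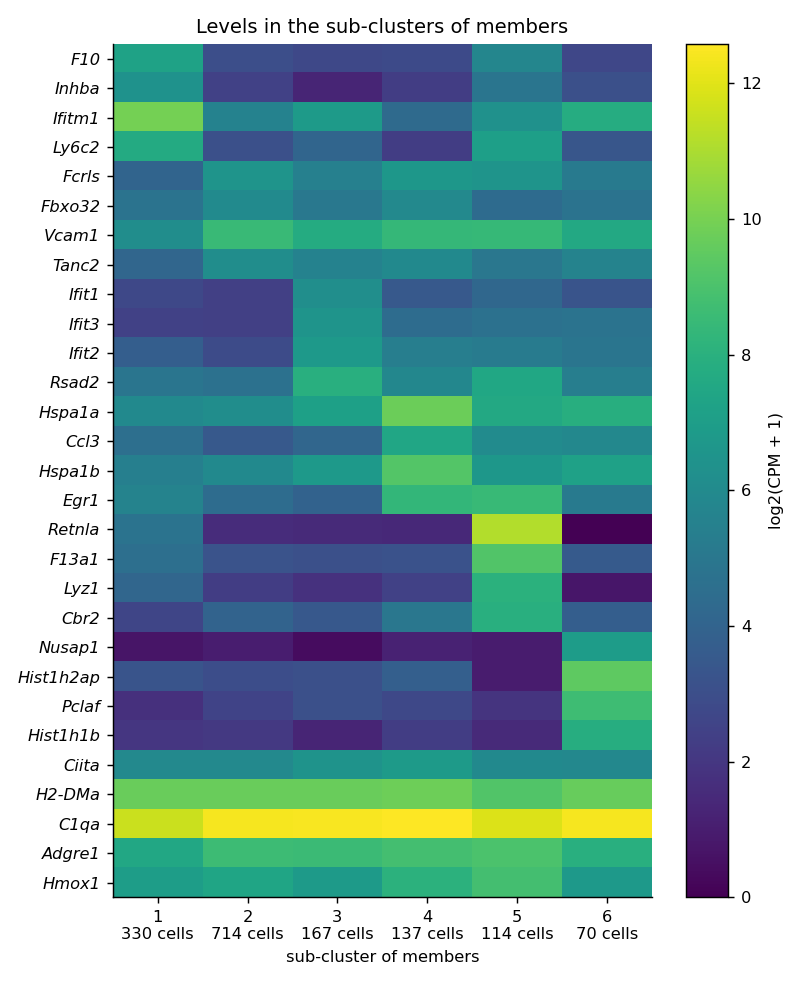
Level of each gene (rows) in the 6 sub-clusters of members (columns), as log2 of CPM plus 1 in colour, with the 4 leading genes of each sub-cluster and below them Ciita, H2-DMa, C1qa, Adgre1 and Hmox1. The leading genes were picked for their difference from all other members, and some are higher in another sub-cluster. Egr1 of sub-cluster 4 is at 319 CPM there and 354 CPM in sub-cluster 5. Fcrls of sub-cluster 2 is at 89.9 CPM there and 99.0 CPM in sub-cluster 4. H2-DMa lies between 567 and 902 CPM.

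Within sub-clusters the differences between libraries were uneven. Mmp12 had a log2 ratio, iron-positive over iron-negative, of 1.56 in sub-cluster 1 (191 and 139 cells) and 0.46 in sub-cluster 2 (500 and 214 cells). In the other four it ran from 0.83 to 2.91, on as few as 9 UMIs in both libraries together. S100a4, higher in iron-positive members as a whole, had 1.25 in sub-cluster 1 and 1.23 in sub-cluster 6, and was lower in sub-clusters 2 (-0.16), 3 (-1.99, -2.87 to -1.29), 4 (-1.72, -2.95 to -0.82) and 5 (-0.40). Fcrls was lower in the iron-positive cells of 5 sub-clusters, from -2.49 in sub-cluster 1 to -0.68 in sub-cluster 4, and higher in sub-cluster 5 (1.03, 0.32 to 1.68). Ccl8 was lower in all 6, at -0.13 to -1.54. Hmox1 had 0.44, 0.49 and 0.33 in sub-clusters 1 to 3, above its 0.14 over all members and under 1.5-fold, and -0.10, -0.39 and -0.12 in sub-clusters 4 to 6. Prdx1 ran from -0.02 to 0.34. These values compare 1 library with 1 library, and the ratios of the smaller sub-clusters rest on as few as 22 iron-positive cells.

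Other programmes met the class II-high state unevenly. For each of 10 short gene programmes the cells in its own top decile were counted. A top-decile score of the interferon gamma-like programme was found in 16.2% of iron-negative and 22.1% of iron-positive members, against 10.3% and 7.79% of the others. For Il1r2 with Ifitm1 it was 12.4% and 20.9% against 8.15% and 10.9%. The programme of Mmp12 and Cd36 was in its top decile in 0.767% and 2.45% of members, against 2.16% and 20.7% of the others, and that of Cd209f, Cd163 and Lyve1 in 1.73% and 2.66% against 6.81% and 15.4%. Arg1 with Mmp9 gave 2.01% and 0.204% against 7.42% and 14.9%. The depth of members and others differed, as given above, and these shares were not thinned to 1 depth.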

How the data were processed

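Each of the 2 libraries came as a matrix of UMI counts per gene and barcode, which the authors deposited unnormalised. The submitters' processing notes name Cell Ranger 3.1.0 and mm10, while the deposited file header names 5.0.0, and this was not settled. Counts of all cells in a class were added up in each library and scaled to 1000000 (CPM), and ratios were taken of counts plus 0.5. Intervals are exact conditional Poisson (ratios, 95%) or Clopper-Pearson (shares). With 1 library per fraction no p-value was computed. Genes needed 10 CPM on the higher side, and 1.5-fold was the mark for a difference. Named genes are the 15 highest and 10 lowest in members by the smaller log2 ratio of both libraries (50 CPM and 100 UMIs at least), the 12 largest ratios each way between libraries, the 5 largest each way of the difference, all class II genes, and the 4 most abundant genes of each list. Retnla, Lyz1, Ccr7, H2-DMb2 and other genes resting on few cells, the second and further genes lower in a list, and the genes followed along the deciles and in sub-clusters were chosen after their values were seen. Numbered gene models, Rik, mitochondrial, ribosomal and antigen receptor genes and the 4 rule genes were not ranked. Members were clustered with scanpy 1.11.5 and leidenalg 0.10.2 at resolution 0.5. No doublet caller was run. Gene symbols came from the files. Python 3.11.15, numpy 2.4.6, scipy 1.17.1 and pandas 2.3.3 were used, and the ratio scripts were tested on simulated data. The members, lists and alternatives were chosen with earlier results of these data known. Alternatives changed the gate, the score, the scaling, the minimum level and the subtraction of free RNA.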

Additional observations from a re-analysis of the deposited data

Results flagged for a closer look

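Retnla had a log2 ratio, iron-positive over iron-negative, of 1.31 in members and -1.92 in the other phagocytes, so the libraries differed in opposite directions in the members and the rest. The difference was not tested, and in members 2 iron-positive cells held 96.7% of the UMIs.

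Lyz1 was higher in members than in the other phagocytes of the iron-negative library (log2 1.28, 23.4 against 9.67 CPM) and lower in those of the iron-positive library (log2 -2.00, 4.45 against 18.1 CPM). The difference was not tested. In iron-negative members 5 cells held 81.2% of 398 UMIs, and reads of Lyz1 and its near copy Lyz2 can be confused.

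Outside the phagocyte gate, 1323 iron-positive barcodes had at least 3000 UMIs and at most 15% mitochondrial UMIs. The members' class II threshold was passed by 11 of them (0.831%, 0.416% to 1.48%). Of these, 6 had fewer than 3 of the phagocyte genes, 5 passed a stromal limit, and 3 had at least 2 dendritic cell genes. In the iron-negative library 3 of 227 passed the class II threshold (1.32%, 0.273% to 3.81%), so the share was not higher in the iron-positive library.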

How the results depend on the processing

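The larger share of members among iron-negative phagocytes held under the 9 alternatives in which it could vary, with a ratio from 0.524 to 0.588. Genes higher in members numbered 67, and 113 after scaling by the median ratio and 31 at a minimum of 50 CPM. Genes lower numbered 303, and 181 with the top 20% as members, 197 after median scaling and 89 at 50 CPM. Genes higher in iron-positive members numbered 50, and 225 in sums thinned to 3000 UMIs a cell and 12 at 50 CPM. Genes lower there numbered 89, and 221 with the top 5%, 29 with the top 20%, 38 with the top 10% of each library, 49 after median scaling, 444 in thinned sums, 157 after subtraction of 10% free RNA and 11 at 50 CPM. Fewer genes are tested at 50 CPM, and thinning leaves fewer UMIs per gene. For the other settings the cause was not tested. That subtraction turned Cd36 to -1.49 and Slc40a1 to -3.25 between the libraries' members, took Hmox1 to -1.10 and Gclm to -0.78, and left Mmp12 at 0.53, under 1.5-fold. Chosen after seeing the data, the ratio of Retnla without its top 5 cells was -2.86, and that of S100a4 within sub-cluster 2 was -0.16. Iron and heme genes that reached the minimum level and were higher in iron-positive members numbered 0 in all 15 settings. NRF2 targets numbered 0 or 1, while lipid-associated genes went from 4 to 0 after free RNA subtraction. Cell cycle genes lower in members numbered 6 to 16 and tissue-resident genes 6 to 10. Chemokines higher in members numbered 1, Cxcl9, and 0 without gated cells that had at least 2 dendritic cell genes. Clustering at resolutions 0.3 and 1 gave 5 and 10 sub-clusters. No paired analysis was possible because each fraction is 1 library, so there is at most 1 pair.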

Other observations

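A few members carried genes of other cells. Ccl22, a chemokine of migrating dendritic cells, had 5 UMIs in 3 iron-negative members and 66 UMIs in 13 iron-positive members, 38 of them in 1 cell. Klrd1, a receptor of NK cells also found on some dendritic cells, had 5 UMIs in 5 iron-negative and 50 UMIs in 9 iron-positive members. Clec9a, a receptor of type 1 dendritic cells, was at 4.88 and 9.97 CPM in members against 1.14 and 1.45 CPM in the other phagocytes, and Xcr1 had 33 and 21 UMIs in members. Ubd, which encodes the ubiquitin-like protein FAT10, was at 1.29 CPM in iron-negative and 15.3 CPM in iron-positive members, and at 1.16 and 13.7 CPM in the other phagocytes, a log2 ratio of 3.54 in members and 3.56 in the others.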
